A study of Homo sapiens with 12 samples.

Results

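The interferon-stimulated genes described here are 41 genes that cells switch on when interferon reaches its receptor. They were chosen by name and matched by symbol to the gene identifiers of the table, and all 41 were found among its 43876 genes. RNA was sequenced from MV4-11, a human acute myeloid leukemia (AML) cell line of the monocytic kind that carries the internal tandem duplication of FLT3 (FLT3-ITD), after 24 h of treatment. There were 12 libraries, 3 for each of 4 conditions, and all came from cells that the labels call wild-type. DMSO was the vehicle control. Mito-Lipo was mitoxantrone at 20 nM, an anthracenedione that poisons topoisomerase II, which the study's methods describe as a liposomal form. Gilteritinib, an inhibitor of the FLT3 kinase, was given at 25 nM. Com was mitoxantrone at 20 nM with gilteritinib at 20 nM, so the gilteritinib dose was lower in Com than in Gilteritinib alone. The labels do not say whether replicates were separate cultures, so a p-value measures only the spread between these libraries, which may be technical.

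Type I interferons bind the receptor of IFNAR1 and IFNAR2, and the kinases JAK1 and TYK2 then phosphorylate STAT2. STAT2 acts with the DNA-binding protein IRF9, which binds the interferon-stimulated response element in the promoters of its target genes. The products of those genes sense viral nucleic acid, block its translation or its entry, or feed back on the pathway. Many of them are also held at a low basal level by STAT2, IRF9 and IRF1 without any added interferon.

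The response element was read in the RefSeq promoters of the members, as GAAANNGAAA or its other strand TTTCNNTTTC, with overlapping matches counted separately. The promoter table, in build GRCh38.p14, covers 250 bases before and 50 after each start and held 33 of the 41 members. Of these 33 members, 23 had the element in at least 1 promoter, or 69.7%, against 4.38% of the 27305 genes in the promoter table. Counted by promoter, it stood in 27 of the members' 44 promoters and in 3.57% of all 35116. A match is a description of letters and not a measured binding site. The 200 bases before the start are shown for members from the top to the bottom of the range of expression, with the element in capitals, to set a like promoter sequence beside unlike levels. BST2 (chr19:17405631-17405830, minus strand), ISG15 (chr1:1013297-1013496, plus strand), IFIT1 (chr10:89392423-89392622, plus strand), IFI44L (chr1:78620248-78620447, plus strand), OAS3 (chr12:112938274-112938473, plus strand) and IFI27 (chr14:94110536-94110735, plus strand) each held 2 elements in this window.
BST2: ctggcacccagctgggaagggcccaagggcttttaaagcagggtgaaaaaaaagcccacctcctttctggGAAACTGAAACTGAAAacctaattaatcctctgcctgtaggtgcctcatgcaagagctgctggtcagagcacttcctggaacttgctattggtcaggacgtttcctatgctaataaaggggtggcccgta
ISG15: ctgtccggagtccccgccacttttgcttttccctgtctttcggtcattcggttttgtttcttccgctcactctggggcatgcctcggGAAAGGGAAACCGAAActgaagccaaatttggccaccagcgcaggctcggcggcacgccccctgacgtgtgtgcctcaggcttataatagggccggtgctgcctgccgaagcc
IFIT1: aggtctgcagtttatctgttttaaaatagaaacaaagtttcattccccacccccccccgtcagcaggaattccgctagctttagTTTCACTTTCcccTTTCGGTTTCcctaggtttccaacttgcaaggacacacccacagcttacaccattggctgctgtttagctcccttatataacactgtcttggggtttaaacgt
IFI44L: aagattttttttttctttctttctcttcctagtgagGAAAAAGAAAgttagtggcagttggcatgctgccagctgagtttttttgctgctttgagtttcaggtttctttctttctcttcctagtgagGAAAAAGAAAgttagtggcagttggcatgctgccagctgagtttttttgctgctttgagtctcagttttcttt
OAS3: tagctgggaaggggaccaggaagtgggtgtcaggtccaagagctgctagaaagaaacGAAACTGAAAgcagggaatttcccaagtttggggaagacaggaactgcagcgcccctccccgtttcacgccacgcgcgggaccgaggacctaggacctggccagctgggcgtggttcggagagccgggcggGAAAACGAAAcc
IFI27: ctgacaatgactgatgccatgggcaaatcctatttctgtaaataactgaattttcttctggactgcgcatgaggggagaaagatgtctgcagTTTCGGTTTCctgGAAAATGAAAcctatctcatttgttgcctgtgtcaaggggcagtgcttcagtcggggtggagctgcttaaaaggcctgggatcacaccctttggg
The first element began 130 bases before the start in BST2, 113 in ISG15, 116 in IFIT1, 164 in IFI44L, 143 in OAS3 and 108 in IFI27. In BST2 and ISG15 the elements overlap, and in IFI44L they lie in a repeated stretch.

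Levels are given in FPKM, fragments scaled by gene length and by library depth, so they can be compared between genes. The whole fragments behind the FPKM were recovered for 43850 of the 43876 genes and gave depths of 31725016 to 41330654 fragments per library. FLT3 lay between 132 and 171 FPKM in the 12 libraries, and 10 of the 11 markers fixed for monocytic AML cells had a mean of at least 1 FPKM, the exception being CD68 at 0.0996. The T cell markers summed to at most 0.136 FPKM and those of fibroblasts to at most 0.0857. In every condition replicate 1 stands apart from replicates 2 and 3 over much of the transcriptome, which is described with its values further on, and each result is therefore also given by replicate number.

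Few interferon-stimulated genes were abundant in these cells, and many stood under 1 FPKM. By their mean over the 12 libraries, 5 members had at least 10 FPKM, 15 had 1 to 10 FPKM and 21 had under 1 FPKM. The members' FPKM summed to between 226 and 343 per library, and IFITM2, BST2 and IFITM1 alone made up 56.7% to 70.9% of that sum. Below an FPKM of 0.1 in all 12 libraries, taken as silent, stood OAS3 and IFI27. No member was listed at 0 in all 12 libraries, and 9 members stayed under 0.5 FPKM in all 12. For the tests across genes, 22 members passed the filter of at least 1 FPKM in at least 3 libraries, 17 were low and 2 silent. Of all 43876 genes in the table, 18574 passed the same filter. PARP9 reached 1 FPKM only in Mito-Lipo and Com libraries and USP18 in no Gilteritinib library, so both passed through some of the conditions.

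The membrane restriction factors, which keep viruses from entering or leaving the cell, held the highest levels. IFITM2 had a mean of 91.9 FPKM. It measured 77.6, 98.4 and 110 FPKM in DMSO replicates 1, 2 and 3 and 86.2, 107 and 113 in Mito-Lipo. It measured 50.8, 97.3 and 107 FPKM in Gilteritinib and 52.7, 104 and 99.1 in Com. Replicate 1 was the lowest library in each of the 4 conditions. BST2, or tetherin, which holds budding virions at the cell surface, had a narrower range, with 59.6, 71.4 and 70.8 FPKM in DMSO and 76.3, 66 and 75.3 in Mito-Lipo. It had 69.2, 70.8 and 74.1 FPKM in Gilteritinib and 70.3, 74.6 and 72.0 in Com, and the conditions overlap. IFITM1 measured 21.4, 29.9 and 29 FPKM in DMSO and 24.8, 40.4 and 44.8 in Mito-Lipo. It measured 16.0, 27.4 and 27.6 FPKM in Gilteritinib and 16.8, 29.7 and 31.4 in Com. In each replicate number the Mito-Lipo library of IFITM1 was the highest of the 4. IFITM3, the member of the family best known for blocking influenza virus, was far lower than its neighbours, with 1.36, 1.01 and 1.22 FPKM in DMSO and 1.85, 1.81 and 1.75 in Mito-Lipo. It had 0.997, 1.07 and 1.34 FPKM in Gilteritinib and 1.20, 0.898 and 1.27 in Com, so that the Mito-Lipo libraries overlap with no other library. The genes lie side by side, IFITM2 at chr11:307631-315272, IFITM1 at chr11:313506-315272 and IFITM3 at chr11:319669-327537 (GRCh38, GENCODE 29). They are near-identical in sequence and the first 2 overlap on the same strand, so how reads were split between them is uncertain.

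Of the transcription factors, STAT2 and IRF1 were expressed and IRF9 and IRF7 were low. STAT2 measured 11.1, 11.4 and 11.9 FPKM in DMSO and 16.2, 15.9 and 15.4 in Mito-Lipo. It measured 12.4, 10.9 and 10.8 FPKM in Gilteritinib and 17.5, 11.6 and 10.9 in Com. The 3 Mito-Lipo libraries lie above all DMSO and Gilteritinib libraries, while Com is high in replicate 1 alone. IRF1, which also drives such genes, ranged from 8.99 to 11.3 FPKM. IRF9, the DNA-binding partner of STAT2, ranged from 0.0149 to 0.177 FPKM, on 60 fragments over all 12 libraries. IRF7, which amplifies interferon production, ranged from 0.103 to 0.513 FPKM.

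The oligoadenylate synthetases, which make the messenger that activates RNase L, and the IFIT proteins, which bind foreign RNA ends and block translation, were all below the filter. Means over the 12 libraries ran from 0.0221 FPKM for OAS3 to 0.733 FPKM for OAS2, with 0.142 for OAS1 and 0.281 for OASL. The IFIT family had means of 0.278 FPKM for IFIT2, 0.208 for IFIT3, 0.0609 for IFIT1 and 0.0388 for IFIT5. OAS1 (chr12:112906777-112933222), OAS3 (chr12:112938352-112973249) and OAS2 (chr12:112978395-113011723) form a cluster, as do IFIT2 (chr10:89283694-89309276), IFIT3 (chr10:89327894-89340971), IFIT1 (chr10:89392546-89406486) and IFIT5 (chr10:89414586-89421001).

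The remaining families were mixed. Of the ISG15 system, ISG15 itself, a ubiquitin-like modifier, had a mean of 8.27 FPKM, its ligase HERC5 2.79, HERC6 1.36 and USP18, which removes ISG15 and damps receptor signalling, 0.860. The exonuclease ISG20 had 0.721. Of the nucleic acid sensors, EIF2AK2 (the kinase PKR) had 3 FPKM, IFIH1 (the RNA sensor MDA5) 2.47 and DHX58 (LGP2) 0.468. MX2 had 1.5 FPKM and its paralog MX1, a GTPase and one of the commonest markers of interferon, 0.0735, or 186 fragments in 12 libraries. RSAD2 (viperin) had 0.550 and its neighbour CMPK2 2.86. IFI35 had 5.99 FPKM, XAF1 2.94, IFI6 1.86, IFI44 0.305 and IFI44L 0.142. SAMD9, a translation inhibitor, had 9.80 FPKM and its paralog SAMD9L 0.918. DTX3L, an E3 ligase, had 10.3 FPKM and its partner PARP9 0.942, PARP14 had 6.39, SP110 1.76 and the secreted glycoprotein LGALS3BP 0.263. IFI27 rested on 10 fragments in all, with 0 in 3 libraries, and OAS3 on 94. In a library of average depth 3 fragments, the limit that a count of 0 allows, were worth 0.0338 FPKM for IFI27 and 0.00850 for OAS3, counting error only.

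Whether mitoxantrone changed these genes was asked by Mito-Lipo against DMSO. Of all 41 members, 32 were higher in Mito-Lipo than in DMSO of the same number in replicate 1, 35 in replicate 2 and 38 in replicate 3. The median over the 41, as log2 of the ratio with 0.1 FPKM added to each, was 0.27, 0.37 and 0.48, while the median of the 18574 genes that passed the filter was 0.05, 0.08 and -0.03. That filter leaves out the 17 low and 2 silent members, so these are unlike sets, here and in the comparisons below. The share of all genes higher was not taken by replicate number. In replicates 2 and 3 the differences were largest in the low members: IFI44, IFI44L, IFIT2, IFIT3, OAS1 and OAS2 were higher by more than 1 on this scale in both replicates, which 1.25% of all genes in the table were, and in none of these 6 did replicate 1 pass 1. These members were singled out after their values were seen. The added 0.1 FPKM shrinks ratios at such low levels. OAS1 in replicate 1 had 0.0147 FPKM in DMSO and 0.092 in Mito-Lipo, on 4 and 28 fragments, and 0.74 on this scale.

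In the fragments behind the members named below, OAS1 apart, Mito-Lipo rose less over DMSO in replicate 1 than in replicates 2 and 3. IFIT1 had 1, 4 and 8 fragments in DMSO and 1, 39 and 37 in Mito-Lipo. It had 1, 8 and 4 in Gilteritinib and 2, 11 and 3 in Com. Mito-Lipo replicates 2 and 3 are thus high and replicate 1 is at the level of every other replicate 1. IFIT2 had 10, 20 and 16 fragments in DMSO, 19, 106 and 162 in Mito-Lipo, 2, 20 and 18 in Gilteritinib and 21, 25 and 27 in Com. In replicate 1 it was at 0.127 FPKM in Mito-Lipo against 0.0749 in DMSO, so it was higher there too. IFIT3 had 8, 15 and 18 fragments in DMSO, 11, 87 and 102 in Mito-Lipo, 19, 18 and 23 in Gilteritinib and 7, 26 and 26 in Com. In all 3 genes every other library held at most 27 fragments.

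IFI44 and IFI44L, paralogs that lie next to each other (chr1:78649796-78664078 and chr1:78619922-78646145), had the same pattern. IFI44 had 0, 11 and 14 fragments in DMSO, 3, 54 and 58 in Mito-Lipo, 3, 13 and 12 in Gilteritinib and 10, 21 and 19 in Com. IFI44L had 4, 14 and 14 fragments in DMSO, 7, 88 and 127 in Mito-Lipo, 18, 16 and 12 in Gilteritinib and 6, 35 and 17 in Com. OAS1 had 4, 29 and 14 fragments in DMSO, 28, 104 and 112 in Mito-Lipo, 17, 33 and 32 in Gilteritinib and 21, 27 and 42 in Com. Its Mito-Lipo library of replicate 1 was thus above DMSO of replicate 1 as well. OAS2 had 49, 121 and 116 fragments in DMSO, 83, 315 and 342 in Mito-Lipo, 72, 122 and 149 in Gilteritinib and 89, 152 and 160 in Com. In replicate 1 it was also higher, at 0.367 FPKM in Mito-Lipo against 0.242 in DMSO. USP18, the negative regulator, had 19, 69 and 42 fragments in DMSO and 14, 113 and 122 in Mito-Lipo, so replicate 1 did not move with the others.

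Summed over replicates 2 and 3 and divided by depth, the Mito-Lipo level was 7.40 times that of DMSO for IFI44L, 7.18 for IFIT2, 6.11 for IFIT1, 5.52 for IFIT3, 4.84 for OAS1, 4.32 for IFI44, 2.67 for OAS2 and 2.04 for USP18. IFI44L, IFIT2, IFIT3, OAS1, IFI44 and OAS2 were singled out on these same libraries, so their ratios are no further support. Replicate 1 is left out of the sum. There the log2 ratio with 0.1 FPKM added was 0.13 for IFI44L, 0.38 for IFIT2, -0.01 for IFIT1 and 0.11 for IFIT3. It was 0.74 for OAS1, 0.53 for IFI44, 0.45 for OAS2 and -0.42 for USP18. OAS3, silent by the definition above, went from 14 to 49 fragments, a ratio of 3.38, and IFIT5 from 7 to 33. The ratio was 1 for BST2, 1.01 for DTX3L, 0.877 for MX1 and 0.884 for IRF7, and IFI27 had 1 fragment in each. The same sum in Com was 1.87 times DMSO for IFI44L, 1.45 for IFIT2, 1.17 for IFIT1 and 1.32 for OAS2, with 1.61 for OAS1, 1.61 for IFI44, 1.58 for IFIT3 and 1.26 for USP18. In Gilteritinib it was 0.926 for IFI44L, IFI44 and IFIT1, 0.977 for IFIT2, 1.06 for OAS2, 1.4 for OAS1, 1.15 for IFIT3 and 0.959 for USP18.

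In the test across all genes, limma on log2(FPKM + 1) over the 12 libraries, no member passed an adjusted p of 0.05 in Mito-Lipo against DMSO, and of all 18574 genes 0.0% passed. At an unadjusted p under 0.05, 5 of the 22 members tested were higher and none lower, against 4.95% of all genes higher. They were IFI35 (log2 difference 0.43 ± 0.11 SE, adjusted p = 0.474), STAT2 (0.43 ± 0.14), IFITM3 (0.36 ± 0.12), MX2 (0.35 ± 0.11) and HERC6 (0.32 ± 0.13), on the log2(FPKM + 1) scale, which understates differences of low genes. IFI35, a cytoplasmic interferon-induced protein, measured 3.78, 5.5 and 5 FPKM in DMSO and 6.38, 7.04 and 6.68 in Mito-Lipo. MX2, which blocks nuclear entry of HIV, measured 1.19, 1.16 and 1.28 FPKM in DMSO and 1.63, 1.86 and 1.98 in Mito-Lipo. It measured 1.27, 1.51 and 1.33 FPKM in Gilteritinib and 1.95, 1.40 and 1.43 in Com. HERC6 measured 0.917, 1.36 and 1.07 FPKM in DMSO and 1.42, 1.78 and 1.71 in Mito-Lipo. It measured 1.02, 1.19 and 1.24 FPKM in Gilteritinib and 1.77, 1.20 and 1.64 in Com, so that Com overlaps with both.

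Without overlap of the 3 Mito-Lipo and 3 DMSO libraries, 8 of the 22 members tested were higher and 0 lower, where 7.68% of all genes tested were higher. The 8 were IFI35, HERC6, MX2, ISG15, IFITM3, STAT2, IFIH1 and XAF1, and DHX58, RSAD2 and LGALS3BP below the filter did the same. ISG15 measured 8.04, 7.03 and 6.05 FPKM in DMSO and 8.82, 9.09 and 9.19 in Mito-Lipo. In these members the Mito-Lipo library of replicate 1 is thus also above DMSO. ISG15 measured 10.2, 7.01 and 6.95 FPKM in Gilteritinib and 13.6, 7.26 and 6.01 in Com, high in replicate 1 of both. Over the 22 tested members the median log2 difference was 0.22 and 20 were higher, against a median of 0.03 and 57.0% higher for all genes tested. With no filter and 0.1 FPKM added, so that all 41 entered, the median was 0.42 and 38 were higher. Over all 43876 genes the median was 0.03 and 54.7% were higher. In such bulk libraries, fewer cells of a type and less RNA per cell cannot be told apart. Of 5 erythroid markers 1 (HBB) had a mean of at least 1 FPKM and the list summed to 1.49 to 3.52 FPKM in Mito-Lipo and 0.213 to 1.67 in DMSO. Its part in these differences was not tested.

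The call changed when the replicate number was a block and the recovered fragments were tested in place of FPKM. The block takes up the shift of replicate 1, and a pairing of replicates 2 and 3 by number was not shown. With limma's voom on fragments and the block, 37 members had at least 10 fragments in at least 3 libraries, and IRF9, IFIT5, OAS3 and IFI27 did not. Of these, 5 rose in Mito-Lipo against DMSO at an adjusted p under 0.05, among 1.28% of all 24830 genes. OAS1 rose by 2.33 ± 0.42 SE (log2, voom adjusted p = 0.0162), IFIT2 by 2.45 ± 0.50 (adjusted p = 0.0252), OAS2 by 1.23 ± 0.25 (adjusted p = 0.0252), IFITM1 by 0.44 ± 0.10 (adjusted p = 0.0388) and STAT2 by 0.47 ± 0.11 (adjusted p = 0.0491). IFI44L (2.48 ± 0.70, adjusted p = 0.0860) and IFIT3 (2.03 ± 0.53, adjusted p = 0.0647) did not pass. The block with limma on FPKM called 0 members, with 8 higher at an unadjusted p under 0.05 where 9.45% of all genes were. Voom without the block also called 0, with 9 higher at an unadjusted p under 0.05 where 4.86% of all genes were.

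In replicates 2 and 3 only, limma on FPKM called 4 members higher in Mito-Lipo, where 3.28% of 17611 genes were higher, and they were IFI35, XAF1, STAT2 and IFITM1. In the same libraries, voom called 14 members higher in Mito-Lipo and none lower, where 4.49% of 23618 genes were higher. They were IFIT1, IFIT2, IFIT3, IFI44, IFI44L, OAS1, OAS2, USP18, SAMD9L, MX2, XAF1, IFITM1, EIF2AK2 and STAT2. The largest of these differences was 2.84 ± 0.39 SE in IFI44L (voom adjusted p = 0.000737). IFIT1 passed the filter on fragments through Mito-Lipo and Com, with 39, 37 and 11 fragments, and it had no other library of 10 or more, so its call is no support here or in the comparisons with Mito-Lipo that follow. Leaving out replicate 1 leaves 2 libraries per condition, and this choice of voom was made after the data were seen.

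**Figure D1:**
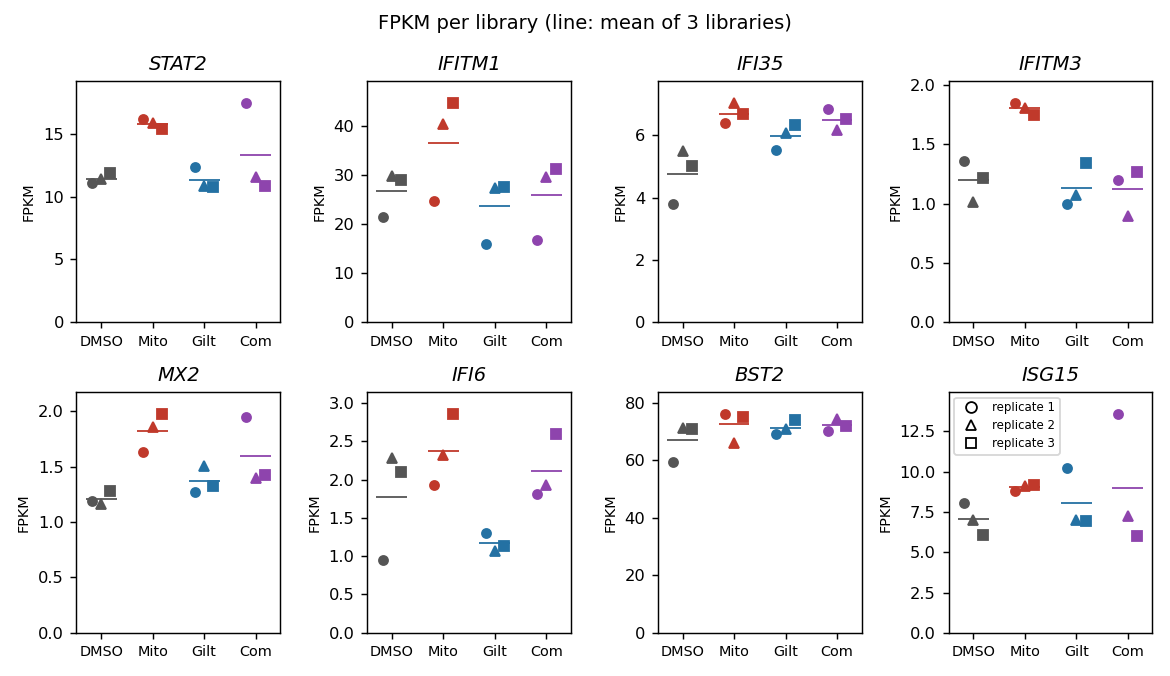
FPKM per library (vertical axis, from 0) of 8 members above the filter in DMSO, Mito-Lipo (Mito), Gilteritinib (Gilt) and Com; circles, triangles and squares are replicates 1, 2 and 3 and the line is the mean of 3. The Mito-Lipo libraries of STAT2 (15.4 to 16.2), IFI35, IFITM3, MX2 and ISG15 lie above all DMSO libraries, IFI6 is lowest in Gilteritinib and in DMSO replicate 1, and BST2 overlaps in all conditions.

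Gilteritinib against DMSO, which asks what the FLT3 inhibitor did alone, gave small differences in most members. The medians over the 41 by replicate number were 0.14, 0.01 and 0.01, with 26, 21 and 21 members higher than DMSO. For the genes that passed the filter they were -0.07, 0.03 and -0.05. Over the 12 libraries the 22 tested members had a median log2 difference of 0.02 and 13 were higher. For all genes tested the median was -0.03 and 40.2% were higher. No member passed limma's adjusted p, as 0.0% of all genes did. IFI35 alone had an unadjusted p under 0.05, at 0.29 ± 0.11 higher, against 0.565% of all genes higher, and its 5.54, 6.09 and 6.33 FPKM did not overlap with DMSO. With voom and the replicate block 0 members were called. IFI6, a mitochondrial and endoplasmic reticulum protein, measured 1.30, 1.07 and 1.13 FPKM in Gilteritinib and 0.944, 2.28 and 2.1 in DMSO, lower in replicates 2 and 3 and higher in replicate 1. Its voom difference in replicates 2 and 3 was -0.98 ± 0.27 SE (adjusted p = 0.138).

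Com against DMSO asked the same of the combination. The medians over the 41 were 0.33, 0.04 and 0.09 in replicates 1, 2 and 3, with 36, 23 and 29 members higher, so that here replicate 1 had the largest value. For the genes that passed the filter they were -0.01, -0.01 and -0.02. Over the 12 libraries the 22 tested members had a median log2 difference of 0.13 and 18 were higher. For all genes tested the median was -0.01 and 46.0% were higher. In replicates 2 and 3 only, limma gave the members a median of 0.03 with 16 higher, where 46.7% of all genes were. In Com replicate 1, STAT2 was at 17.5 FPKM against 11.1 in DMSO, ISG15 at 13.6 against 8.04 and RSAD2 at 0.984 against 0.309. In replicates 2 and 3 STAT2 was at 11.6 and 10.9 FPKM against 11.4 and 11.9, and ISG15 at 7.26 and 6.01 against 7.03 and 6.05. No member passed limma's adjusted p, and 0.00538% of all genes did, which is 1 gene. IFI35 had an unadjusted p under 0.05, at 0.39 ± 0.11 higher, where 0.829% of all genes were higher, with 6.83, 6.16 and 6.51 FPKM in Com. With voom and the replicate block 4 members were higher at an unadjusted p under 0.05, where 2.49% of all genes were, and 0 passed an adjusted one.

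Com against Gilteritinib asked what mitoxantrone added, at unequal gilteritinib doses. No member passed limma's adjusted p, as 0.0% of all genes did. IFI6 (0.51 ± 0.20) and CMPK2 (0.27 ± 0.11) were higher at an unadjusted p under 0.05, where 0.802% of all genes were higher. IFI6 measured 1.81, 1.93 and 2.6 FPKM in Com, above all 3 Gilteritinib libraries. CMPK2, a mitochondrial nucleotide kinase, measured 3.13, 3.14 and 2.94 FPKM in Com and 2.45, 2.47 and 2.24 in Gilteritinib. It measured 2.12, 3.04 and 2.93 in DMSO and 2.96, 3.43 and 3.42 in Mito-Lipo. With voom and the replicate block 0 members were called.

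Com against Mito-Lipo asked what gilteritinib added. Limma called no member, as 0.0% of all genes, and IFITM3 alone was lower at an unadjusted p under 0.05 (-0.41 ± 0.12, IFITM1 being at -0.49 ± 0.29), where 4.12% of all genes were lower. With voom and the replicate block 1 member fell, IFITM1 by 0.50 ± 0.10 SE (adjusted p = 0.0329), among 0.652% of all genes. In replicates 2 and 3 only, limma on FPKM called 3 members lower (XAF1, STAT2 and IFITM1), where 3.76% of genes were lower. In the same libraries, voom called 12 members lower and none higher, where 4.9% of genes were lower. They were IFIT1, IFIT2, IFIT3, IFI44, IFI44L, OAS1, OAS2, RSAD2, SAMD9L, XAF1, IFITM1 and STAT2. IFIT2 was at -2.27 ± 0.27 SE (voom adjusted p = 0.000233). IFIT1, which entered this fit through 2 Mito-Lipo libraries and 1 of Com, is among the 12. These comparisons share the Mito-Lipo libraries with the comparison against DMSO.

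Gilteritinib against Mito-Lipo set the single drugs side by side. Limma called no member, as 0.0% of all genes, while 6 of the 22 tested were lower in Gilteritinib at an unadjusted p under 0.05, where 6.56% of all genes were. IFI6 had the largest difference (-0.63 ± 0.20), with 1.93, 2.32 and 2.86 FPKM in Mito-Lipo above all 3 Gilteritinib libraries, followed by STAT2 (-0.45 ± 0.14), IFITM3 (-0.40 ± 0.12), CMPK2 (-0.34 ± 0.11), HERC6 (-0.30 ± 0.13) and MX2 (-0.25 ± 0.11). With voom and the replicate block 6 members were lower, among 2.86% of all genes. These were IFIT2 (-2.84 ± 0.54 SE, adjusted p = 0.0119), OAS1, OAS2, IFI6, STAT2 and IFITM1 (-0.63 ± 0.10, adjusted p = 0.0051). In replicates 2 and 3 only, limma on FPKM called 4 members lower (IFI6, CMPK2, STAT2 and IFITM1), where 4.19% of genes were lower. In the same libraries, voom called 15 members lower, IFIT1 among them, where 5.85% of genes were lower.

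Whether the difference made by mitoxantrone was the same with and without gilteritinib was tested by the interaction, which takes the difference of Mito-Lipo from DMSO away from that of Com from Gilteritinib. Limma called no member, as 0.0% of all genes, and IFITM3 alone was lower at an unadjusted p under 0.05 (-0.37 ± 0.16), where 1.48% of genes were lower. With voom and the replicate block 0 members passed, and 4 were lower at an unadjusted p under 0.05 where 3.83% of all genes were, among them OAS1 at -2.11 ± 0.58 SE (adjusted p = 0.364). In replicates 2 and 3 only, voom called 6 members lower, where 1.92% of genes were. They were IFIT2 (-2.24 ± 0.47 SE, adjusted p = 0.0177), OAS1 (-2.14 ± 0.49, adjusted p = 0.0292), OAS2 (-1.09 ± 0.24, adjusted p = 0.0229), IFIT3, STAT2 and XAF1. In replicates 2 and 3, the difference of Com from Gilteritinib in these 6 was thus below that of Mito-Lipo from DMSO. This rests on 2 libraries per condition and a fit chosen after the data were seen. Over all 12 libraries no member passed an adjusted p under 0.05. Gilteritinib was at 20 nM in Com and 25 nM alone, so the interaction does not set mitoxantrone with and without an equal dose of it.

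Replicate 1 differed from replicates 2 and 3 in some members, in both directions together about as often as over all genes. In a fit of condition and replicate number with limma, 2 members were higher in replicate 1 and 6 lower at an adjusted p under 0.05. Of all genes tested 26.3% were higher and 12.1% lower. The largest difference was in USP18, lower by 0.70 ± 0.13 SE (log2(FPKM + 1), limma adjusted p = 0.0039), with 0.284, 0.187, 0.417 and 0.321 FPKM in replicate 1 of DMSO, Mito-Lipo, Gilteritinib and Com and 0.686 to 1.92 elsewhere. It was followed by IFITM1 (0.69 ± 0.06 lower, adjusted p = 0.000209) and IFITM2 (0.67 ± 0.11 lower). EIF2AK2, the translation-blocking kinase, was lower by 0.37 ± 0.06, with 2.23, 2.43, 2.18 and 2.53 FPKM in replicate 1 of DMSO, Mito-Lipo, Gilteritinib and Com and 2.90 to 3.89 in the other 8 libraries. SP110, a nuclear body protein, had 1.14, 1.61, 1.12 and 1.61 FPKM in replicate 1 and 1.79 to 2.11 elsewhere, so both groups of libraries are apart. DTX3L was lower by 0.19 ± 0.05, with 8.77, 8.81, 9.76 and 10.2 FPKM in replicate 1 and 10.2 to 11.3 elsewhere. Its partner PARP9, the tested member nearest the filter, was lower by 0.20 ± 0.09 and did not pass (adjusted p = 0.092). PARP9 had 0.705, 0.623, 0.697 and 1.03 FPKM in replicate 1 of DMSO, Mito-Lipo, Gilteritinib and Com and 0.838 to 1.37 elsewhere. HERC5 was higher in replicate 1 by 0.46 ± 0.07 (adjusted p = 0.00164), with 3.08, 3.44, 4.17 and 3.90 FPKM against 1.92 to 2.65 elsewhere. ISG15, the protein that HERC5 attaches, was higher by 0.41 ± 0.13 (limma adjusted p = 0.0349). In Mito-Lipo it was not, with 8.82 FPKM in replicate 1 against 9.09 and 9.19. The call of ISG15 was lost with median-ratio scaling, with no filter, and when any 1 of DMSO replicate 1 or 3, Gilteritinib replicate 1, 2 or 3 or Com replicate 1, 2 or 3 was left out, the difference being 0.24 without Com replicate 1. That of DTX3L was lost without replicate 1 of DMSO or of Mito-Lipo (-0.16 in each). Mitochondrially encoded genes made up 1.64% and 1.88% of the summed FPKM in replicate 1 of Gilteritinib and Com and 3.19% to 4.40% in the other 10 libraries, and their part in the difference was not tested.

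**Figure D2:**
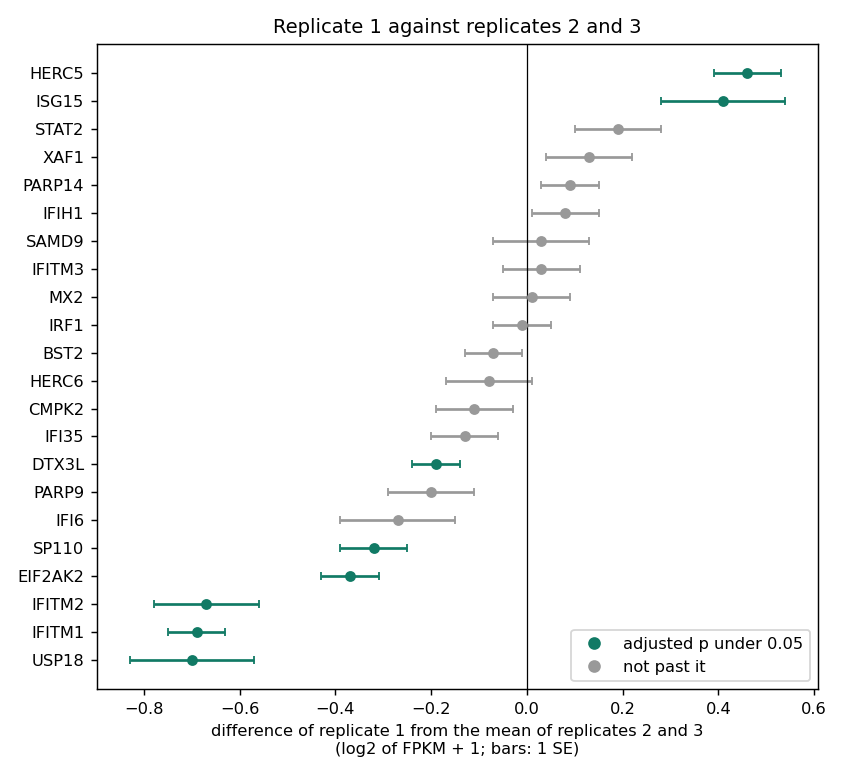
Difference of replicate 1 from the mean of replicates 2 and 3 for the 22 members tested, on the log2(FPKM + 1) scale with bars of 1 SE; green points passed an adjusted p of 0.05 in limma. HERC5 and ISG15 lie to the right of 0 and USP18, IFITM1, IFITM2, EIF2AK2, SP110 and DTX3L to the left.

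Replicates 2 and 3 did not differ in any member by limma at an adjusted p under 0.05, as in 0.0% of all genes, nor at an unadjusted p under 0.05, which 4.45% of all genes reached. Of the spread of a member over the 12 libraries, the condition took a median of 31.8%, the replicate number 23.2% and the rest 24.6%, and over all genes tested 20.7%, 36.6% and 32.1%. The replicate number took the largest share in 9 of the 22 members, HERC5 with 83.9%, EIF2AK2 with 78.2% and SP110 with 72.9% at their head. The condition took the largest share in 9 others, IFITM3 with 78.0%, IFI35 with 71.6% and MX2 with 70.7% at their head.

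The genes upstream of the members were mostly expressed, while the ligands were low. IFNB1 (interferon beta) ranged from 0.138 to 0.346 FPKM, and 8 of 13 interferon ligands listed in the table were silent. IFNK passed the filter at a mean of 3.27 FPKM, and it lies inside MOB3B on the other strand, so its reads are uncertain unless strand was used in counting. The receptor chains IFNAR1 and IFNAR2 had means of 17.0 and 3.78 FPKM, and the kinases JAK1 and TYK2 19.5 and 43.2. MAVS, the adaptor of the RNA sensors, had 17.1 FPKM and IRF3, which switches on IFNB1, 30.1. SOCS1, an inhibitor of JAK kinases, had 1.62.

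None of the pathway genes passed limma's adjusted p in the 3 comparisons with DMSO. Of the 10 tested genes of the receptor and kinase list, STAT3 alone was higher in Mito-Lipo at an unadjusted p under 0.05 (0.32 ± 0.11 SE), and of the 12 genes of negative regulation and ISG15 conjugation TRIM25, an E3 ligase, was (0.18 ± 0.06), against 4.95% of all genes. Of the 29 other interferon-stimulated genes tested, 3 were, with a list median of 0.11 against 0.03 for all genes. They were TNFSF10, the death ligand TRAIL (0.52 ± 0.11 SE, limma adjusted p = 0.397), GBP2, a guanylate-binding GTPase (0.65 ± 0.22), and SHFL, an inhibitor of frameshifting (0.25 ± 0.11). TNFSF10 had 1.86 ± 0.208 FPKM (SD, n = 3) in DMSO, 3.09 ± 0.119 in Mito-Lipo, 2.32 ± 0.336 in Gilteritinib and 2.61 ± 0.161 in Com. In Com, TNFSF10 (0.34 ± 0.11) and SAMHD1, a dNTP hydrolase (0.30 ± 0.12), were higher at an unadjusted p under 0.05, as 0.829% of all genes were. In Gilteritinib RBCK1 was lower at the same threshold (-0.29 ± 0.12), as 1.3% of all genes were. The pathway lists held 100 genes of the table, of which 64 were tested.

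Several members share sequence with a neighbour, and 22 of the 41 overlap another annotated gene. Of these, 19 overlap a gene on the other strand and 13 a protein-coding gene, among them IFIT1, IFIT2 and IFIT3 with LIPA, PARP9 with DTX3L and RSAD2 with CMPK2. Without strand, fragments from a gene and its partner on the other strand cannot be told apart. USP18 has a near-identical copy and its level is uncertain for the same reason.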

How the data were processed

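RNA-seq of MV4-11 cells, 3 libraries per condition, was deposited by the authors as 1 table of FPKM per gene with 4 decimals. The submitters' processing notes name Bowtie 0.12.9, Cufflinks 2.1.1, HTSeq, DESeq2 and the mouse build mm10 without roles, while the gene identifiers are human; the step that made the FPKM is not given in the sources used here. No sample column was left out. FPKM were tested as log2(FPKM + 1) with limma 3.58.1 (R 4.3.3) for genes with at least 1 FPKM in at least 3 libraries, with 1 mean per condition and a trend of variance on level. P-values were adjusted per comparison over all genes tested (Benjamini-Hochberg). An adjusted p under 0.05 was the threshold, and the replicate contrasts came from a fit of condition and replicate number. Positions are from GENCODE 29 (GRCh38), and 41461 identifiers had a symbol.

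Whole fragments were recovered from the steps in the deposited FPKM, to within 0.1 of a whole number, for 14670 of the 14691 genes with at least 1 FPKM in all libraries. The shortest fitting length was taken, so a count may be too small by a whole factor; for the members this length was 0.311 to 1.53 times the summed exon length. Fragments were tested with voom (at least 10 in at least 3 libraries), chosen after seeing the data. Counting limits at 0 use 3 fragments. The fragment recovery and the limma and voom fits of Mito-Lipo against DMSO, with and without the block, were tested on simulated data.

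All 18 pairs of same-numbered libraries deviated together from their condition means (correlations 0.165 to 0.657). A shift of replicate 1 alone can give such correlations, so they cannot show that replicates 2 and 3 are paired by number. The members and gene lists were chosen with earlier results of these data known. All members are named, and 2 genes outside them are not reported here. Values in every library are given for the 3 highest, for those with an unadjusted p under 0.05, for the largest difference of each comparison and for those nearest the filter, and for differences between replicate numbers as the replicate 1 values and the range of the rest; other genes are named for the smallest unadjusted p in their list or as fixed parts of the pathway. Alternatives were a pseudocount of 0.1, no filter, a mean of at least 5 FPKM, median-ratio scaling, no trend, the replicate block, only the 6 libraries compared, each library left out, replicates 2 and 3 only and other limits for silence.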

Additional observations from a re-analysis of the deposited data

How the results depend on the processing

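The count of members past limma's adjusted p, 0 in each comparison of conditions, stayed 0 with a pseudocount of 0.1, no filter, a mean of at least 5 FPKM, median-ratio scaling, no trend, the replicate block (0 members in each), only the 6 libraries compared, each library left out and voom without the block. With replicates 2 and 3 only, limma called 4 members in Mito-Lipo against DMSO, 3 in Com against Mito-Lipo and 4 in Gilteritinib against Mito-Lipo. Voom with the replicate block called 5, 1 and 6 in these 3 comparisons, and voom on replicates 2 and 3 called 14, 12 and 15, and 6 in the interaction. The 14, 12 and 15 each include IFIT1, which passed the filter through Mito-Lipo and Com, so its call is no support. In Com or Gilteritinib against DMSO and Com against Gilteritinib the count was 0 under every alternative. The median of the members in Mito-Lipo against DMSO, 0.22, was 0.10 with a mean of at least 5 FPKM, 0.42 with a pseudocount of 0.1 and no filter, 0.47 with voom with and without the replicate block, and 0.50 with voom on replicates 2 and 3. With each library left out it ran from 0.14 (without DMSO replicate 1) to 0.32 (without Mito-Lipo replicate 1). For Com against DMSO, 0.13, it was 0.03 in replicates 2 and 3 only, with limma and with voom. For Com against Mito-Lipo, -0.09, it was -0.19 with the pseudocount of 0.1 and no filter, -0.18 with voom, -0.21 with its replicate block and -0.38 in replicates 2 and 3. For Gilteritinib against Mito-Lipo, -0.19, the same 4 gave -0.38, -0.45, -0.41 and -0.45. For the interaction, -0.09, they gave -0.26, -0.26, -0.24 and -0.39, limma on replicates 2 and 3 gave -0.18, and leaving out each library gave -0.19 (without Mito-Lipo replicate 1) to -0.06. Replicate 1 against replicates 2 and 3, with 8 members called, gave 4 with a mean of at least 5 FPKM and 18 with voom; its median, -0.07, was -0.20 with the pseudocount of 0.1 and no filter and -0.21 with voom. Leaving out 1 library moved other medians by over 1.5 times as well. That of Com against DMSO was 0.05 without DMSO replicate 1, that of Com against Mito-Lipo -0.04 without Mito-Lipo replicate 3 and -0.05 without replicate 2, that of the interaction -0.14 without DMSO replicate 2, and that of replicate 1 -0.12 without Com replicate 1, -0.04 without DMSO replicate 2 and -0.02 without DMSO replicate 1. That of Gilteritinib against DMSO, 0.02, ran from -0.03 without DMSO replicate 1 to 0.07 without DMSO replicate 2, that of Com against Gilteritinib, 0.09, was 0.06 without replicate 1 of either, and that of replicate 2 against 3, -0.03, ran from -0.06 without Com replicate 3 to 0.01 without Com replicate 2 or Mito-Lipo replicate 3. Silence at under 0.5 FPKM held 9 members, and being listed at 0 held 0, against 2. Settings that add low members or fewer libraries change which genes enter by construction; the cause of the other differences was not tested. Members below about 20 fragments per library cannot show small differences at this depth, and counting limits leave out any error of amplification.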
